A study of Homo sapiens with 4 samples.

Results

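This gene set comprised 10 genes for surface proteins by which stem, progenitor and myeloid cells are told apart: CD34, CD38, CD33, PROM1, THY1, CD36, CD14, ANPEP, MME and CD7. They were chosen by name in the array design, and every probe carrying 1 of these names was used, which gave 14 of the 58185 probes and 10 of the 43311 genes on the array. MME had 3 probes, CD34 and CD33 had 2 each, and the other genes had 1 each. RNA came from cultures of MDS-L, a human cell line established from myelodysplastic syndrome cells, and of MDS-L/CDA, its counterpart with resistance to 5-azacytidine (AZA), obtained by introducing the deaminase gene CDA. Both lines grew in RPMI1640 to which 50 μM 2-mercaptoethanol, IL-3 at 20 ng/mL and serum (FBS, 10%) had been added, and each was exposed to vehicle (0.1% DMSO) or to 1 μM AZA for 72 h. Each of these 4 conditions was measured on 1 one-colour array. No line carrying an empty vector was among the 4 arrays, so the introduced gene and the making of the line cannot be told apart.

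With 1 array per condition there was no replicate check of any difference, no test was made, and every fold below describes these 4 arrays. On 2 arrays, MDS-L with AZA and MDS-L/CDA with vehicle, the labels' treatment entry names the opposite agent, and the groups follow the title, description and source name. The signal of a probe is given as a multiple of the 75th percentile of its array, and the ± value is the scanner software's own error of that spot, which is 10% or more of the signal and covers neither hybridization nor culture. A probe counted as measured where the software flagged it as well above background, which held for 18958 to 21259 probes per array. The lowest scaled signal with that flag was 0.190 on both MDS-L arrays, and in MDS-L/CDA it was 0.272 with vehicle and 0.296 with AZA. Where only the brighter array was above background, the fold is a lower bound against that limit and is written as "at least". Signals of different probes are not compared with each other. In a culture, a change in the fraction of cells that carry a marker and a change in RNA per cell cannot be told apart.

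CD34 is a sialomucin of hematopoietic stem and progenitor cells, and CD38 is an ectoenzyme that consumes NAD and appears as progenitors leave the most primitive stage. THY1 and PROM1 also mark primitive cells. CD33 and ANPEP (CD13) are carried by the myeloid lineage, CD14 and CD36 by monocytes, MME (CD10) by lymphoid progenitors and granulocytes, and CD7 by T and NK lineage cells and by the myeloid blasts of some patients. AZA is incorporated into nucleic acids, traps DNA methyltransferases and so lowers methylation at CG dinucleotides.

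The genes that define the sampled cells were checked first. The pan-leukocyte gene PTPRC had scaled signals of 29.9 with vehicle and 22.6 with AZA in MDS-L, and of 35.8 and 33.8 in MDS-L/CDA. Signals of other genes follow in the same order. The interleukin 3 receptor gene IL3RA had 39.2, 43.4, 38.2 and 51.9, CSF2RB (its signalling chain) 4.24, 5.51, 2.90 and 4.35, and the progenitor transcription factor gene MYB 373, 274, 438 and 395. CD44 lay between 68.4 and 92.9 and CD99 between 12.7 and 19.3. SPN was above background only on the MDS-L arrays, at 0.250 and 0.416, and MPO, which encodes the peroxidase of granulocyte precursors, on no array. GATA2 was 13.3, 32.7, 13.1 and 26.4. KIT, the stem cell factor receptor gene, was 0.503, 23.8, 0.346 and 1.24. Of 14 stromal and endothelial markers, PECAM1 alone was above background, between 0.402 and 1.33. The arrays thus carried the leukocyte and IL-3 receptor genes, and MPO was not above background.

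The probe positions show which part of each gene was read, so the first 30 of the 60 bases are given for the 5 members that were at least 2-fold apart in some comparison below. THY1 was read at chr11:119288887-119288946 on the minus strand, CD36 at chr7:80302711-80303343 on the plus strand, and CD38 at chr4:15850185-15850244 on the plus strand. CD14 was read at chr5:140011318-140011377 and CD7 at chr17:80273242-80273301, both on the minus strand. All are hg19 positions from the array files. The CD36 probe spans 633 genomic bases and therefore crosses a splice junction. The files do not say in which exon or untranslated region a probe lies.
THY1: ttatggcatctcattgaggacaaagaaaac
CD36: ctttggcttaatgagactgggaccattggt
CD38: tgaaaaatcctgaggattcatcttgcacat
CD14: gttgaggacttttcgaccaattcaaccctt
CD7: aaactgtgctcgtggcgggataagaattcg

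Since AZA lowers methylation at CG dinucleotides, the 250 bases upstream of the RefSeq start are shown for CD36, CD38 and CD14, with each CG in capitals. They are GRCh38.p14 sequences, a build other than that of the probes, at chr7:80601957-80602206 on the plus strand, chr4:15778078-15778327 on the plus strand and chr5:140633176-140633425 on the minus strand. Where a gene has several RefSeq starts, the most upstream is shown.
CD36: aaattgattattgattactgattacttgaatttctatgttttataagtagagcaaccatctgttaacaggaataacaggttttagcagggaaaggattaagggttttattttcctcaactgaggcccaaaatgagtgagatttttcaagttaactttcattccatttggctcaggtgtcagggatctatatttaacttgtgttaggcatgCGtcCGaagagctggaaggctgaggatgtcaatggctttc
CD38: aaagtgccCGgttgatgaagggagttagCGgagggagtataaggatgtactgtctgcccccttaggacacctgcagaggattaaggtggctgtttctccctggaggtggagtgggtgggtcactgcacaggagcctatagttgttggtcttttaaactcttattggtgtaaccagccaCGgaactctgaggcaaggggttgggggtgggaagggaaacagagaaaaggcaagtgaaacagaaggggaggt
CD14: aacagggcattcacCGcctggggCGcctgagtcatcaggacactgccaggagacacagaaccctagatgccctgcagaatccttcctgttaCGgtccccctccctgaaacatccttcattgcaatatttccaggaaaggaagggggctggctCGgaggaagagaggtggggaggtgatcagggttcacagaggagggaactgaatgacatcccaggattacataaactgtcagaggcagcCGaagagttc

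The dinucleotide CG reads the same on both strands. It occurred 2 times in the CD36 window, 3 times in that of CD38 and 5 times in that of CD14. The corresponding windows held 2 for CD33, 13 for PROM1, 14 for CD34, 15 for MME and 26 for ANPEP. Of 35116 RefSeq windows of this length, 93.9% held at least 1 CG and the median was 11. At least as many as in CD36 were present in 85.3% of them, as in CD38 in 77.1%, as in CD14 in 65.7%, as in CD34 in 44.8% and as in ANPEP in 19.6%. The other 5 CD36 windows held 1 or 2. The other ANPEP window held 9, those of PROM1 held 26, 17 and 5, and those of MME 25, 23 and 17. For these 3 genes the number therefore depends on the start chosen. Methylation was not measured on these arrays, and THY1 and CD7 had no window in the table.

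**Figure D1:**
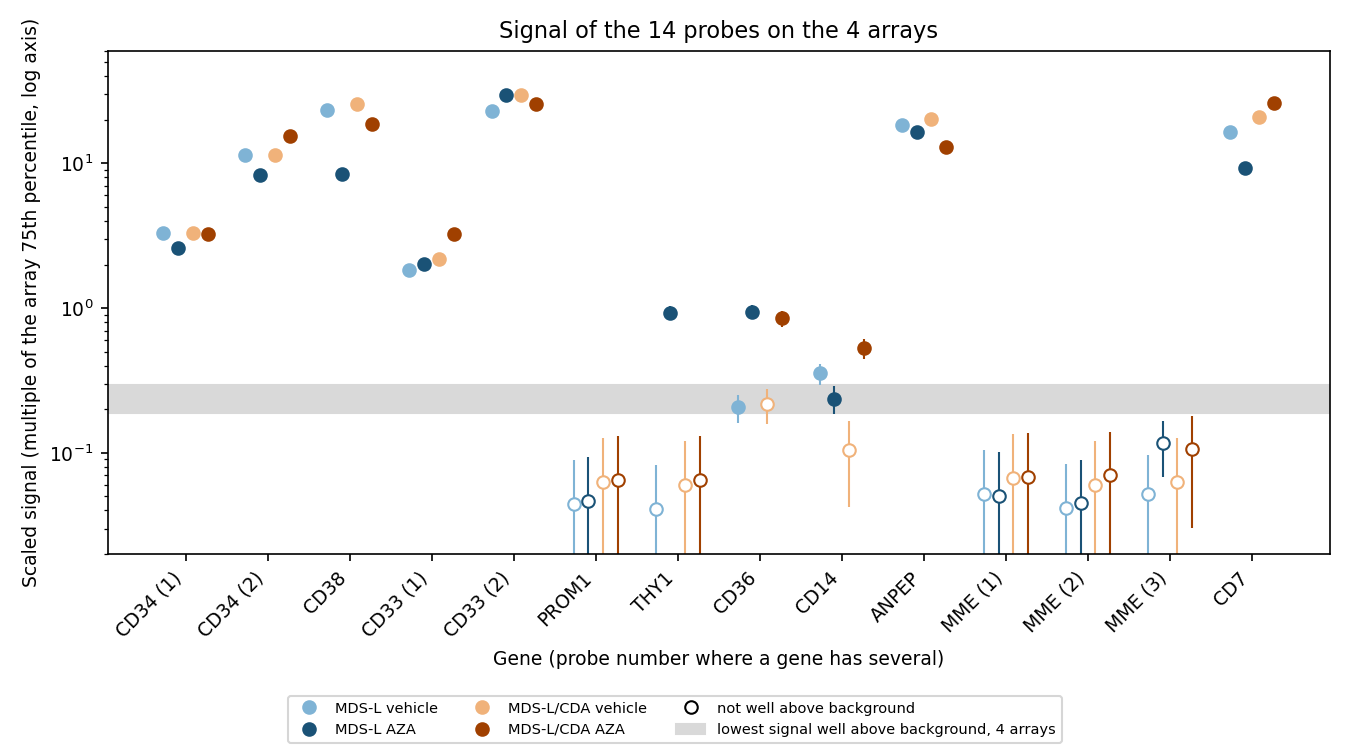
Scaled signal (log axis, multiples of the array 75th percentile) of the 14 probes on the 4 arrays, with bars for the scanner software's error. Filled points are well above background, open points are not, and the grey band spans the lowest signals with that flag (0.190 to 0.296). CD34 (2) and CD33 (2) are the brighter probes of those genes. CD34, CD38, CD33, ANPEP and CD7 were well above the band on all 4 arrays, THY1 on the MDS-L AZA array alone, and PROM1 and MME on none.

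In vehicle, CD34, CD38, CD33, ANPEP and CD7 were measured in both lines. CD36 and CD14 were dim and above background in MDS-L alone, and PROM1, THY1 and MME were above it in neither line. AZA left PROM1 and MME below background in both lines. In MDS-L cells with AZA, THY1 and CD36 signals were higher and CD38 was lower by 2-fold or more. In MDS-L/CDA cells with AZA, CD36 alone passed 2-fold.

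The stem and progenitor markers came first. The brighter CD34 probe (chr1:208060609-208060668, minus strand) gave 11.4 ± 1.14 with vehicle and 8.30 ± 0.832 with AZA in MDS-L, and 11.4 ± 1.14 with vehicle and 15.4 ± 1.54 with AZA in MDS-L/CDA. AZA lay below vehicle in MDS-L and above it in MDS-L/CDA. The log2 ratio of AZA over vehicle was -0.46 ± 0.20 in MDS-L and 0.43 ± 0.20 in MDS-L/CDA, neither of which reached 2-fold. The dimmer CD34 probe (chr1:208062032-208062091), annotated to the same RefSeq transcripts as the brighter one, gave 3.30, 2.60, 3.29 and 3.26. Its ratios were -0.34 and -0.01, so the higher signal in MDS-L/CDA with AZA was seen with the brighter probe alone.

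CD38 had scaled signals of 23.5 ± 2.35 with vehicle and 8.43 ± 0.844 with AZA in MDS-L, and 25.8 ± 2.58 with vehicle and 18.7 ± 1.87 with AZA in MDS-L/CDA. The MDS-L AZA array stood below the other three. CD38 was 2.79-fold lower with AZA in MDS-L (log2 ratio -1.48 ± 0.20), where 1.8% of 17169 genes had a lower ratio. In MDS-L/CDA its log2 ratio was -0.46 ± 0.20, short of 2-fold.

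THY1, a GPI-anchored glycoprotein, was well above background on 1 array. Its scaled signal was 0.932 ± 0.102 in MDS-L AZA, whereas 0.0411 with vehicle in MDS-L, and 0.0601 with vehicle and 0.0649 with AZA in MDS-L/CDA, were not above background. THY1 was at least 4.91-fold higher with AZA in MDS-L. No fold exists for MDS-L/CDA, since both of its arrays were below background. PROM1 (chr4:15982046-15982105), the pentaspan protein CD133, lay between 0.0444 and 0.0653 and was above background on no array.

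Among the myeloid markers, CD33, an inhibitory lectin for sialic acid, was read by 2 probes. The brighter CD33 probe (chr19:51742998-51743057, plus strand) gave 23.0 ± 2.30 with vehicle and 29.9 ± 2.99 with AZA in MDS-L, and 29.9 ± 2.99 with vehicle and 25.8 ± 2.58 with AZA in MDS-L/CDA. The 4 values lay within 1.30-fold, and the log2 ratio of AZA over vehicle in MDS-L was 0.38 ± 0.20, which turned to -0.16 with each array scaled to its median. The other CD33 probe (chr19:51728805-51729068) spans 264 genomic bases and so crosses a junction. It gave 1.83, 2.01, 2.19 and 3.23, with log2 ratios for AZA of 0.14 ± 0.21 in MDS-L and 0.56 ± 0.21 in MDS-L/CDA. In MDS-L/CDA the probes disagreed in direction, since the brighter gave -0.21 ± 0.20. The annotation lists a RefSeq transcript shared by both CD33 probes and, for each, another not listed for the other probe. Whether this bears on the disagreement was not tested.

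ANPEP, the membrane aminopeptidase N, was measured at chr15:90333766-90334236 on the minus strand by a probe spanning 471 genomic bases. It gave 18.4 ± 1.84 with vehicle and 16.5 ± 1.65 with AZA in MDS-L, and 20.4 ± 2.04 with vehicle and 12.9 ± 1.29 with AZA in MDS-L/CDA. The lowest ANPEP value was that of MDS-L/CDA with AZA. The log2 ratio of ANPEP was -0.16 ± 0.20 in MDS-L, 0.01 with quantile normalization, and -0.66 ± 0.20 in MDS-L/CDA.

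CD36, a scavenger receptor that takes up fatty acids and oxidized lipoprotein, was higher with AZA in both lines. It gave 0.206 ± 0.0443 with vehicle and 0.941 ± 0.102 with AZA in MDS-L, and 0.218 ± 0.0600 with vehicle and 0.852 ± 0.106 with AZA in MDS-L/CDA. Both AZA arrays stood above both vehicle arrays, and the MDS-L/CDA vehicle signal was not above background. CD36 was 4.56-fold higher with AZA in MDS-L (log2 ratio 2.19 ± 0.35) and at least 3.13-fold higher in MDS-L/CDA. Of the measured genes, 1.63% had a higher ratio in MDS-L and 0.455% in MDS-L/CDA. With normexp background correction, the log2 ratios of CD36 were 0.66 in MDS-L and 0.44 in MDS-L/CDA and that of THY1 in MDS-L was 0.73, so none of them reached 2-fold.

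CD14, the coreceptor for lipopolysaccharide, was dim on every array. It gave 0.353 ± 0.0577 with vehicle and 0.236 ± 0.0514 with AZA in MDS-L, and 0.104 ± 0.0618 with vehicle and 0.530 ± 0.0823 with AZA in MDS-L/CDA, and the MDS-L/CDA vehicle signal was not above background. CD14 was at least 1.95-fold higher with AZA in MDS-L/CDA, just under the 2-fold limit. In MDS-L its log2 ratio was -0.58 ± 0.39.

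The lymphoid-associated members came last. CD7, an immunoglobulin superfamily protein, gave 16.4 ± 1.64 with vehicle and 9.34 ± 0.935 with AZA in MDS-L, and 20.8 ± 2.08 with vehicle and 26.2 ± 2.62 with AZA in MDS-L/CDA. The MDS-L AZA array was the lowest and the MDS-L/CDA AZA array the highest. Its log2 ratio was -0.81 ± 0.20 in MDS-L and 0.34 ± 0.20 in MDS-L/CDA, neither of which reached 2-fold. MME, a neutral endopeptidase, was above background with none of its 3 probes, which lay between 0.0419 and 0.117.

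Counted over the set, 2 of the 8 members measured in MDS-L were at least 2-fold higher with AZA (THY1 and CD36), against 6.73% of all 17172 measured genes. CD38 was the 1 member at least 2-fold lower, against 6.03%. In MDS-L/CDA, 1 of 7 measured members was higher (CD36), against 2.53% of 15393 genes, and 0 were lower, against 3.07%. The median log2 ratio over the measured members was -0.31 in MDS-L, where all genes had -0.13, and 0.34 in MDS-L/CDA, where all genes had 0.02. With so few members, 1 gene moves these shares by over 10 percentage points.

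**Figure D2:**
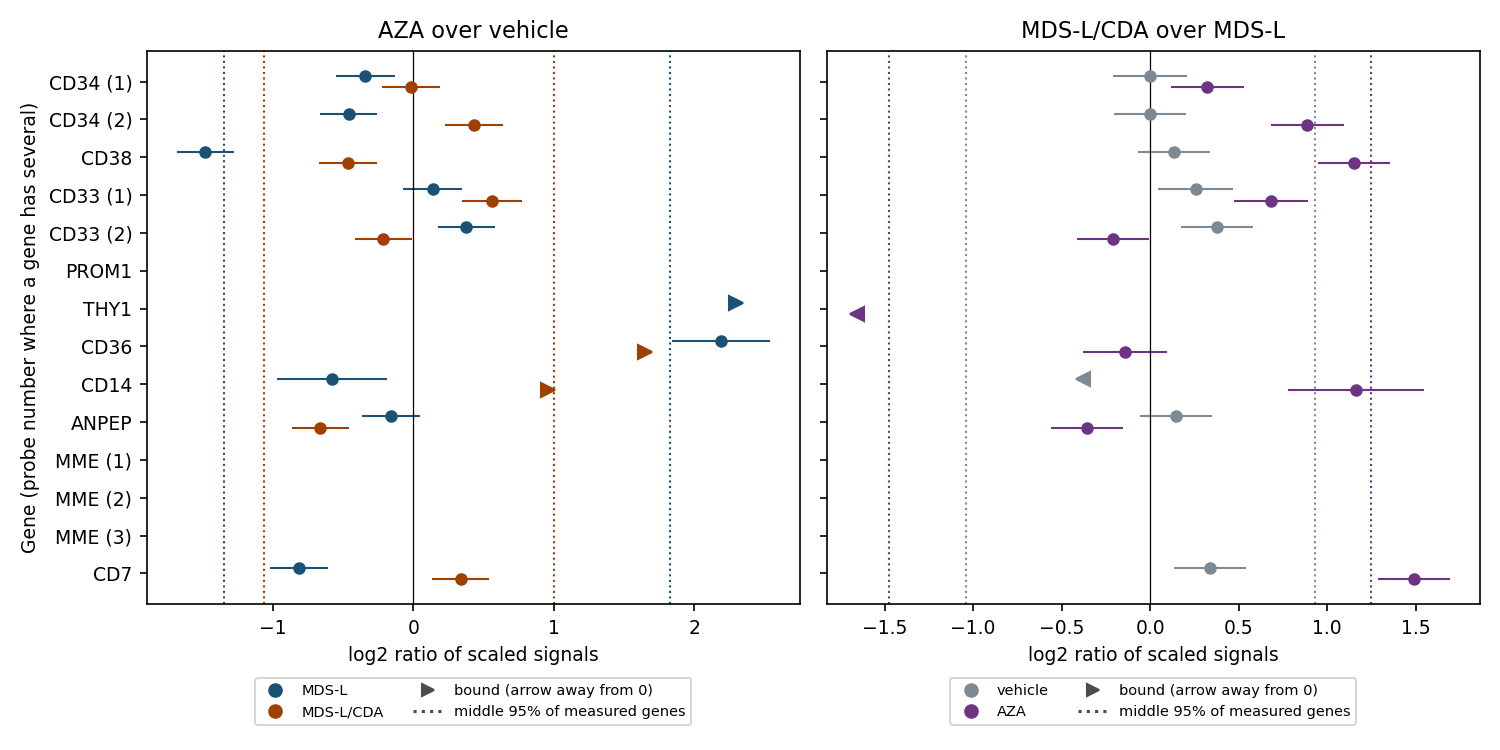
Log2 ratio of scaled signals for each probe, AZA over vehicle (left) and MDS-L/CDA over MDS-L (right). Points have the combined software error of both spots, triangles are bounds, dotted lines enclose the middle 95% of measured genes, and rows without a symbol had no ratio. On the left, CD38, THY1 and CD36 in MDS-L and CD36 in MDS-L/CDA lie outside the lines of their own comparison. On the right, CD7 and THY1 lie outside those with AZA (-1.47 to 1.25).

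The lines were then compared at each treatment. In vehicle, 0 of 7 measured members were at least 2-fold apart, against 1.97% of 16015 genes higher and 2.64% lower in MDS-L/CDA. The brighter CD34 probe had a log2 ratio of -0.00 ± 0.20, CD38 gave 0.14, ANPEP 0.15, CD7 0.34, and CD33 0.38 with the brighter and 0.26 with the other probe. With each array scaled to its median CD34 moved to -0.52, and CD38, ANPEP, CD7 and the brighter CD33 probe turned to -0.39, -0.38, -0.18 and -0.14 (all genes above background on both arrays had a median of -0.43 there and 0.09 as reported). CD34 was at -0.37 without scaling and at -0.48 with normexp. CD14 was at least 1.30-fold lower in MDS-L/CDA, and CD36 gave no fold, since its signal in MDS-L (0.206) was under the background limit of the MDS-L/CDA array (0.272).

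With AZA, 3 of 8 measured members were at least 2-fold higher in MDS-L/CDA than in MDS-L, namely CD7, CD14 and CD38, against 5.43% of 16739 genes. CD7 was 2.81-fold higher (log2 ratio 1.49 ± 0.20), CD14 2.24-fold (1.16 ± 0.39) and CD38 2.22-fold (1.15 ± 0.20). THY1 was at least 3.15-fold lower, and it was the 1 member lower, against 5.23%. CD34 had a log2 ratio of 0.89 ± 0.20 with the brighter probe and 0.32 with the other, ANPEP -0.36 and CD36 -0.14. The CD33 probes lay in opposite directions, at -0.21 ± 0.20 with the brighter and 0.68 ± 0.21 (1.60-fold) with the other. The median over all genes in this comparison was 0.19. With no scaling between arrays the ratios of CD7, CD14 and CD38 were 0.98, 0.66 and 0.65, and none reached 2-fold. CD38 was also under 2-fold with quantile normalization, at 0.94. Over all settings CD7 ran from 0.98 to 1.49, CD14 from 0.37 to 1.285 and CD38 from 0.65 to 1.15. For CD7 and CD38 the reported value was thus the highest.

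The difference between the lines in the log2 ratio of AZA over vehicle could be formed for the 5 members measured on all 4 arrays. MDS-L/CDA minus MDS-L was 1.15 for CD7, 1.02 for CD38, 0.89 for the brighter CD34 probe, -0.50 for ANPEP and -0.59 for the brighter CD33 probe, each ± 0.29 by the software error. The other CD34 probe gave 0.33 ± 0.29, and the other CD33 probe gave 0.42 ± 0.30, opposite in direction to the brighter one. Over 13962 genes its median was 0.15 and the middle 95% ran from -1.21 to 1.34, a range that holds all 5 members.

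**Figure D3:**
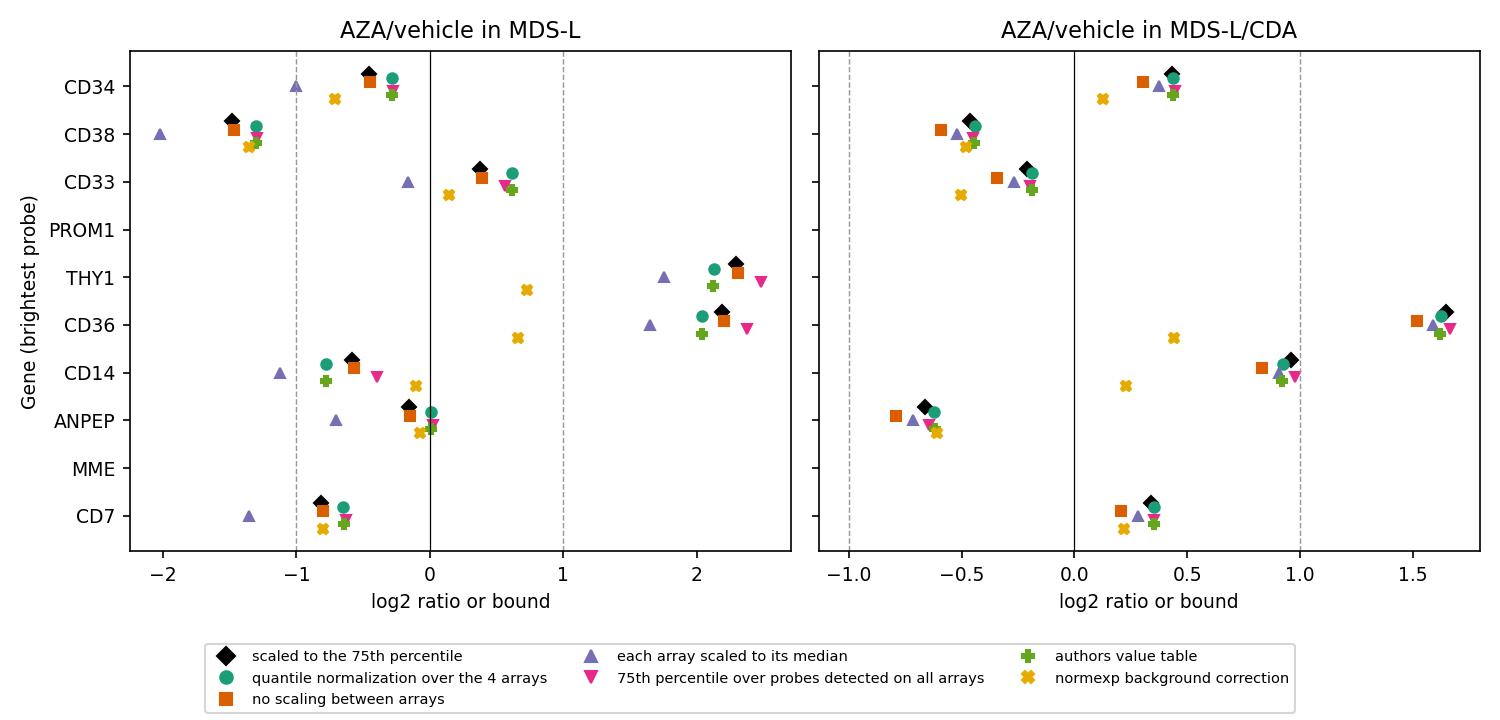
Log2 ratio of AZA over vehicle for the members under the main scaling and the alternative processing settings, in MDS-L and MDS-L/CDA, with dashed lines at 2-fold. PROM1 and MME had no ratio. In MDS-L, CD38 stayed below 0 (-2.02 to -1.30) and CD36 above it (0.66 to 2.37) under every setting drawn, whereas CD33 (-0.16 to 0.61) and ANPEP (-0.70 to 0.03) crossed 0.

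Genes that work with each member were listed by function, and the same 2-fold count was made. Genes written as "at least" higher were above background on the AZA array alone and entered their count through it. The shares over all genes against which these counts stand are 6.73% higher and 6.03% lower in MDS-L, and 2.53% higher and 3.07% lower in MDS-L/CDA, so that a count of 0 among the few genes of a list in MDS-L/CDA is near what all genes give. Beside CD34, 6 of 10 sialomucin and selectin genes were measured in MDS-L. PODXL, a podocalyxin of the CD34 family, was 2.11-fold lower with AZA (57.7 to 27.3), and PODXL2 (endoglycan) was 2.57-fold lower (4.58 to 1.78). In MDS-L/CDA, 0 of 5 passed 2-fold, and PODXL went from 70.2 to 61.8. Of 15 other progenitor surface markers measured in MDS-L, IL2RA (the interleukin 2 receptor alpha chain) was at least 2.87-fold higher and ITGA6 (integrin alpha 6) 2.33-fold lower. In MDS-L/CDA, CD96 was 2.09-fold lower, 1 of 12. It was 1.998-fold lower in MDS-L (18.8 to 9.40), just under the 2-fold limit. The list medians were -0.13 and 0.17.

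Beside CD38, 9 of 16 genes of NAD metabolism were measured. NNMT, which methylates nicotinamide, was 5.09-fold higher with AZA in MDS-L, and PECAM1 (CD31), the binding partner of CD38, was 2.22-fold higher (1.33 with AZA). In MDS-L/CDA, NAMPT, the enzyme of NAD salvage, was 3.26-fold lower (8.01 to 2.46), and no gene of the list was 2-fold higher.

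The list beside CD33 had the highest median of the member lists in MDS-L/CDA. Of the sialic-acid lectins, their phosphatases and related genes, 5 of 12 measured were at least 2-fold higher with AZA in MDS-L and 5 of 10 in MDS-L/CDA. The median log2 ratio was 0.58 in MDS-L and 1.03 in MDS-L/CDA, against -0.13 and 0.02 over all genes, and 0.03 and 0.98 with each array scaled to its median. SIGLEC6 was 4.48-fold higher in MDS-L (5.10 to 22.9) and 3.51-fold in MDS-L/CDA (4.22 to 14.8). SIGLEC10 was 2.58-fold and 2.52-fold higher, and SOCS3, a cytokine signalling inhibitor, 2.33-fold and 2.24-fold. SIGLEC8 was at least 4.05-fold and SIGLEC7 at least 2.11-fold higher in MDS-L, and neither was above background in MDS-L/CDA. SIGLEC1 was at least 4.70-fold and SIGLEC16 2.74-fold higher in MDS-L/CDA. CMAS, which activates sialic acid, was 2.46-fold lower in MDS-L. Siglec genes are close paralogs, and whether their probes hybridize to each other's transcripts was not tested.

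Beside CD36, 3 of 15 measured genes of scavenging and fatty acid handling were 2-fold higher in MDS-L and 0 of 13 in MDS-L/CDA. FYN, a kinase that signals downstream of CD36, was at least 9.21-fold higher, and ACSL4, which activates long fatty acids, was 2.22-fold higher (5.68 to 12.6). NR1H3, the sterol sensor LXR alpha, was 2.03-fold higher (7.49 to 15.2). Beside CD14, LY96 (MD-2) was at least 2.71-fold higher in MDS-L, 1 of 11 genes of the lipopolysaccharide chain. MAP3K7 (TAK1) was 2.12-fold lower in MDS-L/CDA, and the receptor gene TLR4 was above background on no array.

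Beside ANPEP and MME, 1 of 13 measured peptidase genes was higher and 1 lower in MDS-L, and 0 of 12 passed in MDS-L/CDA. ADAM8, a sheddase, was higher by 1.59 on the log2 scale (11.8 to 35.6), and ERAP2, an aminopeptidase of the endoplasmic reticulum, was 3.94-fold lower (2.06 to 0.524). Of 8 genes around PROM1, TTYH1 was at least 2.50-fold higher in MDS-L. Of 14 GPI-anchored proteins beside THY1, CD24 was 2.51-fold higher (3.66 to 9.18). Of 7 ligands and partners of CD7, CD2 was at least 5.94-fold higher. None of these 3 lists had a gene past 2-fold in MDS-L/CDA. There TTYH1 was at least 1.83-fold higher (0.241, not above background, to 0.497) and CD2 at least 1.66-fold. Both bounds stood against a higher background limit than in MDS-L, so the 2-fold count alone does not set the lines apart for these genes.

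**Figure D4:**
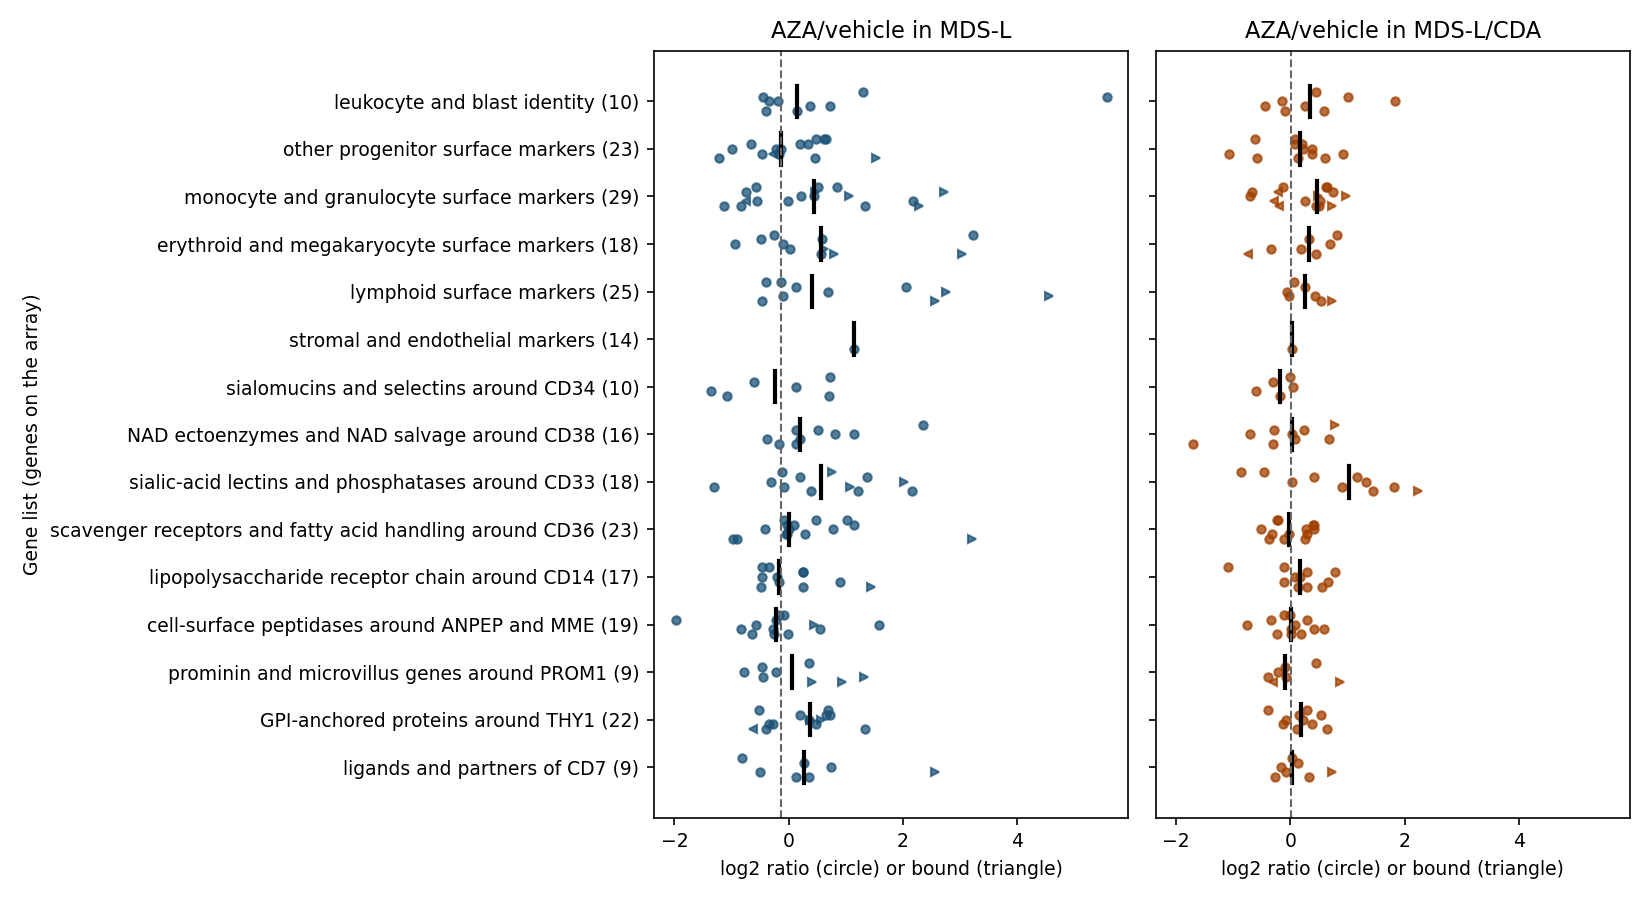
Log2 ratio of AZA over vehicle for the genes of each functional list in MDS-L and MDS-L/CDA, with a black bar for the median of each list, a dashed line for that of all measured genes, and triangles for bounds. The list beside CD33 had medians of 0.58 and 1.03, and all genes had -0.13 and 0.02.

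The markers of other lineages were counted in the same way, since members such as CD14, CD36 and CD7 are lineage markers themselves. Of the monocyte and granulocyte markers, 13, 16, 13 and 13 of 29 were above background on the 4 arrays, in the order used above. Their summed scaled signals were 65.9, 67.5, 50.1 and 46.1. These sums rest mainly on a few bright probes and do not describe the list as a whole. Among those probes, FUT4 gave 18.0, 12.1, 11.8 and 7.39, CD4 13.6, 18.5, 15.2 and 18.1, and CSF3R 7.39, 4.14, 0.674 and 0.616. In MDS-L, 5 of 17 measured markers of this list were at least 2-fold higher with AZA. Among them were CX3CR1 (at least 6.57-fold) and CSF1R (at least 4.86-fold), and LILRB2 was 2.19-fold lower. In MDS-L/CDA, 0 of 16 passed 2-fold, where 2.53% of all genes were higher and 3.07% lower, against 6.73% and 6.03% in MDS-L. There CX3CR1 was at least 1.98-fold and CSF1R at least 1.67-fold higher, each above background with AZA alone. For CSF1R the bound stood against a higher background limit (0.272, against 0.190 in MDS-L). The monocyte and granulocyte list medians were alike, at 0.45 in MDS-L and 0.46 in MDS-L/CDA. Of 10 measured lymphoid markers 4 were higher in MDS-L, with CD3D at least 23.5-fold and CD6 at least 6.76-fold, and 0 of 7 in MDS-L/CDA. The lymphoid list medians were 0.41 in MDS-L and 0.26 in MDS-L/CDA. Of 11 erythroid and megakaryocyte markers, GP1BB was 9.33-fold (3.47 to 32.4) and GP9 at least 8.18-fold higher in MDS-L, and 0 of 7 passed in MDS-L/CDA. No gene of that list was 2-fold lower in MDS-L, but TFRC (147 to 76.3), EPOR, BSG and RHAG had lower signals with AZA. The erythroid and megakaryocyte list medians were 0.57 in MDS-L and 0.33 in MDS-L/CDA. In MDS-L, CX3CR1, CSF1R, CD2, CD3D, CD6 and GP9 were among the markers above background with AZA alone. They entered these counts and medians through the array where they were high, so the shares and medians only describe these arrays. The higher CD36 and THY1 signals in MDS-L AZA stood beside higher signals of some markers of several lineages, whose part in the result was not tested.

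Genes whose signal moved most like a member were ranked by the distance between mean-centred log2 signals over the 4 arrays, among 13961 other genes measured on all of them. Each gene was taken by its brightest probe, so the dimmer probes of CD34 and CD33 had no part in this ranking. Among the nearest to CD38 were HIST1H3E (distance 0.0600) and AL523350 (0.0668), and 0.630% of genes lay within 0.3. The nearest to CD7 were CTSW (0.0554), ENST00000323387 (0.0802) and CDC6 (0.0867), with 0.544% within 0.3. CD34 was nearest to ENST00000546264 (0.0443), LRRC75A and WDR77, CD33 to FDXR (0.0117), TINAGL1 and ERBB2, and ANPEP to lnc-APBB1IP-2 (0.0289), FMR1 and CPEB1. For those 3 members between 4.03% and 6.79% of genes lay within 0.3, so their patterns were common. These distances rest on 4 arrays.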

How the data were processed

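RNA of the 4 conditions was hybridized to 60-mer one-colour (Cy3) Agilent arrays on 1 slide, 1 array per condition. The authors deposited the scanner intensity of each spot from Feature Extraction 10.7.1.1 (per the file headers), background-subtracted within the array and not normalized between arrays, and a value table of normalized intensity for 51680 probes, used as an alternative. The methods' rule adds a Z score, whose formula is not given in the sources used here, so the ratio of 2 alone was applied.

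Control spots and 16 probes with outlier flags were left out. Processed signals were taken to log2, spots of 1 probe were averaged, and each array was centred on its 75th percentile. No probe was saturated. The number of arrays limits the precision. A gene with several probes was taken by the brightest, and counted where it was well above background on at least 1 array of a pair. For a bound, the dim side was set to the array's lowest signal flagged well above background, or to the probe's signal where that was higher. Named genes are the 10 members, in each of 15 functional lists (256 different genes, 249 on the array) up to 2 largest increases and 2 largest decreases past 2-fold per line, the identity genes and the 3 nearest genes in pattern, of which 1 is not reported here. SIGLEC7, SIGLEC10 and SOCS3 (MDS-L), SIGLEC10, SIGLEC16 and SOCS3 (MDS-L/CDA), NR1H3 and TLR4 lie outside this rule and were chosen after their values were seen. The same holds for FUT4, CD4, CSF3R, TFRC, EPOR, BSG and RHAG. The members and lists were chosen with earlier results of these data known. Upstream sequences are from RefSeq (GRCh38.p14), and 8 of the 10 members matched. The labels give IL-3 at 20 ng/mL and the methods another concentration. The titles of the AZA arrays give the dose in mM, and the dose of the source names and the methods, 1 μM, was used.

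Alternatives were other scalings (quantile, none, median, detected probes), the value table, normexp with an offset of 50 (limma 3.58.1, R 4.3.3), other rules for dim and multiple probes, outlier spots kept, and folds of 1.5 and 3. Scripts used Python 3.11.15, numpy 2.4.6, pandas 2.3.3 and matplotlib 3.10.9 and were tested on simulated data.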

Additional observations from a re-analysis of the deposited data

Results flagged for a closer look

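For 4 members the AZA array lay on opposite sides of vehicle in the 2 lines, each by more than the scanner software's error. With 1 array per condition, these differences between the lines were not tested. CD34 (brighter probe) had a log2 ratio of AZA over vehicle of -0.46 in MDS-L and 0.43 in MDS-L/CDA, CD33 (brighter probe) 0.38 and -0.21, CD14 -0.58 and a bound of at least 0.96, and CD7 -0.81 and 0.34. The second probe of CD34 gave -0.34 and -0.01, and that of CD33 gave 0.14 and 0.56, so for neither gene was the opposition seen with both probes. With each array scaled to its median, the CD33 ratio in MDS-L turned to -0.16, so that both lines lay below vehicle.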

How the results depend on the processing

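No paired analysis was possible because each condition had 1 array, and no array could be left out. Numbers of members at least 2-fold apart changed as follows. With AZA in MDS-L, 1 was lower by the main setting, 2 at 1.5-fold, 0 at 3-fold and 3 with median scaling. In that comparison 2 were higher, but 3 with the laxer detection flag, 1 where both arrays had to be above background and 0 with normexp. With AZA in MDS-L/CDA, 1 was higher, but 2 at 1.5-fold, 2 with the computed ratio in place of the bound, 2 with the laxer detection flag, and 0 with normexp or with both arrays above background, and 0 were lower, but 1 at 1.5-fold. Between lines in vehicle, 0 were lower, but 1 with the computed ratio or the laxer flag. Between lines with AZA, 3 were higher in MDS-L/CDA, but 4 at 1.5-fold, 0 at 3-fold and 0 without scaling. That number was 2 with quantile normalization or the value table, and 1 with the percentile over detected probes or with normexp. In the same comparison 1 was lower, but 0 with normexp or with both arrays above background. The causes were not tested, beyond the stated change of threshold, flag or scale. In 93 such recounts the number stayed within 1.5 times that reported, and in 19 it did not. Ratios of single probes stayed within the software error in 224 recomputations and moved by more in 76, and list medians moved by under 0.2 in 200 and by more in 40. No member ratio past 2-fold changed sign. Scaling moved the median of all genes above background on both arrays: for AZA in MDS-L it was -0.16 as reported, -0.70 with median scaling and 0.03 with detected probes, and for the lines with AZA 0.23 as reported and -0.27 without scaling.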
